A study of Homo sapiens with 6 samples.

Results

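The comparison concerns how BicR prostate cancer cells differed from LNCaP cells whatever hormone treatment they had received. The unit of description was the line identity gene, defined as a gene that passed edgeR's quasi-likelihood test for the difference between the lines at an adjusted p below 0.05 and lay on the same side of LNCaP in 3 of 3 matched treatments. Of 13885 genes tested, 614 met this definition (4.42%), of which 219 (1.58%) were higher in BicR and 395 (2.84%) were lower. Same sign alone was common, since 6815 genes (49.1%) kept it in all 3 treatments and 6201 of these did not pass the test.

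LNCaP is an established human prostate cancer line, derived from a lymph node metastasis, that depends on androgen for much of its growth. BicR is labelled only as a prostate cancer line, and how it was derived, or whether it is a clone, is not given in the sources used here. Before treatment each line spent 3 days in medium free of phenol red, with 2.5% charcoal-stripped serum, which holds little steroid hormone. Each was then given ethanol vehicle, 10 nM dihydrotestosterone (DHT, the main androgen of the prostate) or 1 µM bicalutamide (an antiandrogen) for 24 h. There was 1 library of total RNA for each line and treatment, so 3 BicR libraries were set against 3 LNCaP libraries. The treatments stood in for replicates, and the p-values measure only the spread of the line difference over these libraries.

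Androgen signalling switches on luminal prostate genes such as the kallikreins, while other genes are repressed. Prostate cancer cells that grow under antiandrogens often keep this signalling active, and altered androgen metabolism and loss of luminal identity are textbook features of resistant disease. Interferon-stimulated genes, which recur below, are switched on by transcription factors such as those of the IRF family and encode proteins that sense or degrade foreign RNA.

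Total counts ran from 50871634 to 55917016 in LNCaP and from 42162723 to 49460929 in BicR. Of 37 luminal prostate markers 32 had enough counts to be tested, and their summed level, in counts scaled to library size (CPM), was 9601 to 17198 for LNCaP and 8995 to 19657 for BicR. The defining markers PTPRC of immune cells, CDH5 of endothelium and PDGFRA and COL1A2 of fibroblasts had 0 counts in every library, which for each library allows up to 3 counts, or 0.0553 to 0.0715 CPM. Counts of the basal marker TP63 were 18, 21 and 51 in LNCaP against 3 to 6 in BicR, and the neuroendocrine marker CHGA had 0 to 2 counts in any library. Of 20 immune markers 15 were below the filter, and the summed immune level was 25 to 41.5 CPM in LNCaP and 15.6 to 21.8 CPM in BicR. The LNCaP ethanol library stood apart in the endoplasmic reticulum chaperone gene HSPA5, at 8598 CPM against 1245 to 1646 CPM in the other 5 libraries, and in mitosis genes, described below.

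The line identity genes differed by a median of 1.30 on the log2 scale and the least changed by 0.64, while the median difference over all tested genes was 0.00. The highest fitted values belong to genes near 0 counts in LNCaP and depend on the fit. At least 2-fold differences were fitted for 151 of the higher and 278 of the lower genes, and at least 4-fold for 42 and 73. In 584 of the 614 the values of the lines did not overlap, 196 being higher and 388 lower in every BicR library. This describes the values that chose the genes; over all tested genes 2302 (16.6%) and 2329 (16.8%) did not overlap. The line identity genes had a lower median level than the tested genes at large, 14.9 against 26.9 CPM. Among the genes just inside the threshold was TAGLN at adjusted p = 0.0499 by edgeR's quasi-likelihood test, and the nearest gene outside it was SKA3, a spindle and kinetochore gene, at 0.0501. Before adjustment, p was under 0.05 for 1476 higher (10.6%) and 1969 lower genes (14.2%).

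Whether genes passed after adjustment depended on the bicalutamide pair of libraries. Without either library treated with bicalutamide, 0 genes passed in either direction by edgeR. Without both, unadjusted p-values by edgeR were under 0.05 for 1491 higher and 2110 lower genes, against 1476 and 1969 with all libraries. The groups described below kept differences. The median log2 fold change was 0.62 against 0.76 for interferon-stimulated genes, 0.84 against 0.55 for androgen-induced genes and 1.64 against 1.30 for mitosis genes. Without the ethanol pair 448 of the 614 still passed, and without the DHT pair 374 did.

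**Figure D1:**
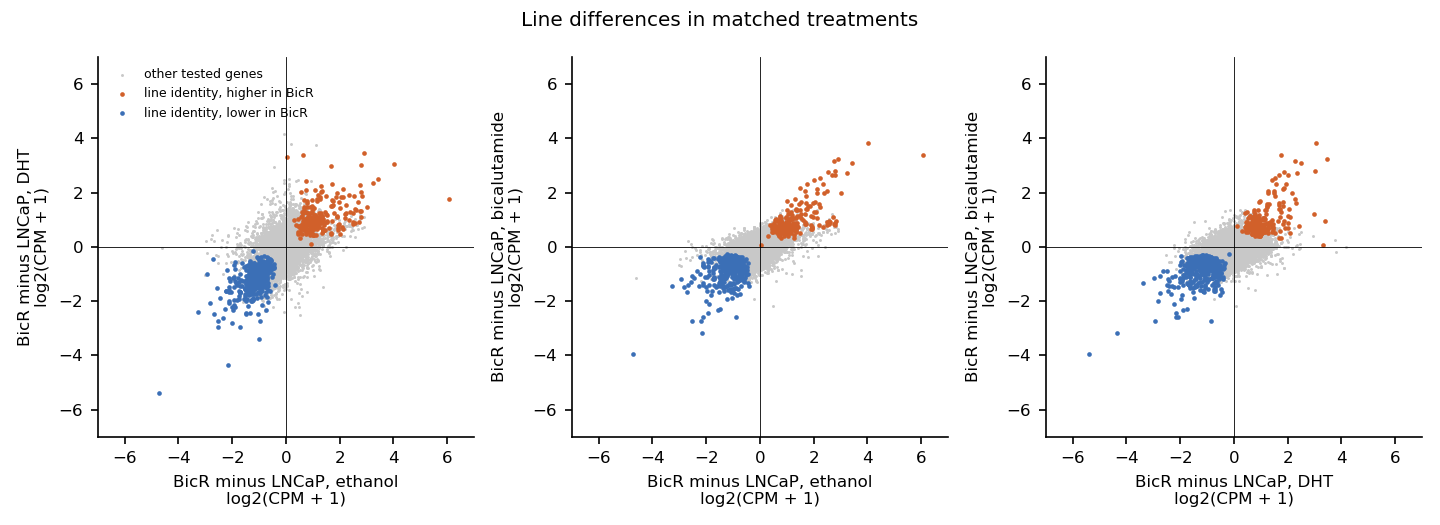
Each panel sets the difference between the lines in a treatment (BicR minus LNCaP, log2(CPM + 1)) against the same difference in another treatment, with 1 point per tested gene. Orange points are the 219 line identity genes higher in BicR, blue points the 395 lower ones and grey points the other tested genes; coloured points keep their sign because the definition requires it, and grey points lie in all 4 quadrants.

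As a description across the 13885 genes, which are not independent replicates and share 6 libraries, the line differences under ethanol correlated with those under DHT at r = 0.563 and with those under bicalutamide at r = 0.558, and those under DHT and bicalutamide at r = 0.436. Among the line identity genes the 3 matched log2 differences of a gene spanned a median of 0.79, against 0.57 for all tested genes.

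The largest differences in favour of BicR were in genes barely detected in LNCaP. FGL1, which encodes a secreted fibrinogen-like protein made mainly by liver, was covered by 2, 0 and 0 LNCaP counts under ethanol, DHT and bicalutamide, against 38, 59 and 36 BicR counts. The BicR level was 18.2 times that of LNCaP under ethanol (95% counting interval 4.71 to 156), and the lower ends of the intervals were 20.1 under DHT and 9.84 under bicalutamide. ALB, the serum albumin gene, followed the same pattern, with 1, 1 and 2 LNCaP counts and 42, 49 and 37 BicR counts. Both genes were thus near the floor in LNCaP and above it in every BicR library.

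KCNJ3, a subunit of G protein-gated potassium channels, stood at 0.18, 0.0737 and 0.153 CPM in LNCaP and at 4.49, 2.12 and 5.7 CPM in BicR, a log2 fold change of 4.88 (SE 0.35, adjusted p = 0.000568, edgeR). ARMCX1, an X-linked armadillo repeat gene whose protein sits on mitochondria, was at 0.9, 0.682 and 0.537 CPM in LNCaP and 13.4, 17.5 and 13.6 CPM in BicR (log2 fold change 4.40, SE 0.26, adjusted p = 0.000276). In both genes the spread within a line was small beside the gap between the lines.

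PASD1, a cancer-testis antigen known as an inhibitor of the circadian CLOCK complex, was among the 5 genes on the higher side with the steadiest difference of at least 4-fold, at 6.72, 5.4 and 7.11 CPM in LNCaP and 52.1, 51.4 and 55 CPM in BicR (log2 fold change 3.05, SE 0.17, adjusted p = 0.000276). FIGN, which encodes a microtubule-severing ATPase, was at 1.1, 1.05 and 2.07 CPM in LNCaP and 18.9, 9.54 and 19.4 CPM in BicR (3.49, SE 0.26). Of 24 tested cancer-testis genes 2, PASD1 and PAGE1, were higher (8.33%, against 1.58% of all tested genes). On the lower side was 1 gene (4.17%, against 2.84%), MAGEA4, at 12.5 to 14.4 CPM in LNCaP and 4.17 to 4.55 CPM in BicR.

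Other genes among the 15 highest were of low level as well. GRIN3A, a subunit of NMDA-type glutamate receptors, was at 0.08, 0.258 and 0.0575 CPM in LNCaP and 1.15, 2.38 and 0.773 CPM in BicR (3.49, SE 0.40), and ARHGAP24, a regulator of Rac, rested on 1, 2 and 3 LNCaP counts and 38, 40 and 44 BicR counts. ACTL8, a testis actin-like gene, had 4, 6 and 0 LNCaP counts against 34, 32 and 52. All 3 were above LNCaP in each BicR library, on counts too low for a narrow interval. Among the steadiest differences, ODZ2, a teneurin of cell adhesion, was at 12.4, 10.6 and 11.6 CPM in LNCaP and 57.8, 40.1 and 53.7 CPM in BicR (2.12, SE 0.16, adjusted p = 0.000568, edgeR), and the adaptor gene STAC at 0.34 to 0.422 CPM and 2.12 to 2.75 CPM (2.75).

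Among the most highly expressed genes of the higher side, MCCC2, a subunit of the carboxylase that degrades leucine, was at 140.2, 519.6 and 188 CPM in LNCaP and 403, 981 and 394 CPM in BicR (1.17, SE 0.19, adjusted p = 0.0169, edgeR). ZMIZ1, a transcriptional coactivator, was at 178, 266 and 241 CPM in LNCaP and 349.8, 764 and 344 CPM in BicR (1.00, SE 0.22), and C1orf116 had a log2 fold change of 1.13. In both lines these genes were highest under DHT.

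TXNIP behaved unlike these. It encodes the thioredoxin-interacting protein, which restrains glucose uptake and responds to glucose, and its level was 12.9, 261 and 95.8 CPM in LNCaP but 922, 882 and 1019 CPM in BicR. BicR exceeded LNCaP 71.4 times under ethanol, 3.38 times under DHT and 10.6 times under bicalutamide. The groups did not overlap, yet nearly all of the variation lay among the LNCaP libraries, and the fitted log2 fold change of 3.70 carried an SE of 0.74 (adjusted p = 0.0323, edgeR).

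**Figure D2:**
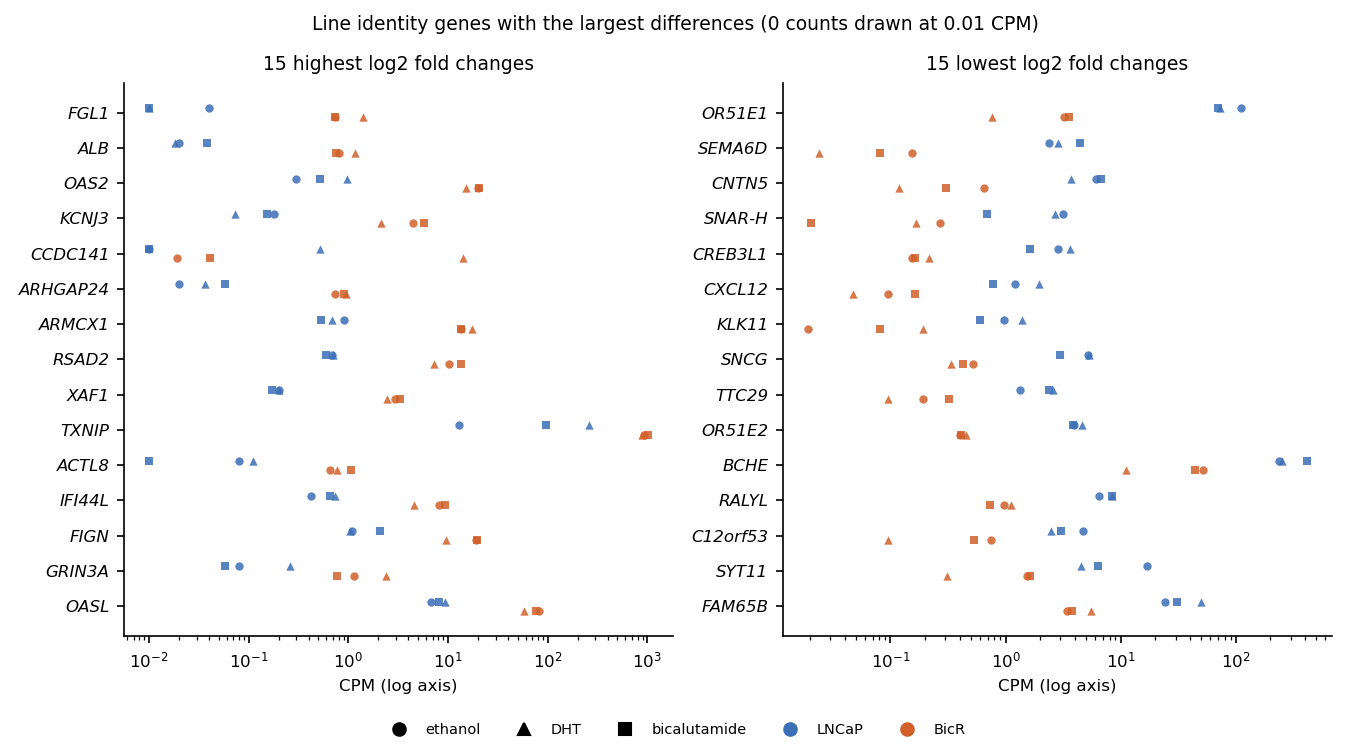
Level in CPM on a log axis of the 15 line identity genes with the highest and the 15 with the lowest log2 fold change, with 1 point per library (circle ethanol, triangle DHT, square bicalutamide; blue LNCaP, orange BicR; a count of 0 is drawn at 0.01 CPM). In nearly every row the orange and blue points form separate groups; CCDC141 is the exception, with only the DHT libraries well above the floor.

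Interferon-stimulated genes held the highest share of genes higher in BicR among the lists with at least 20 tested genes. Of 46 tested, 17 were line identity genes higher in BicR (37%, against 1.58% of all tested genes), 0 were lower, and the median log2 fold change was 0.76, against 0.00 over all tested genes. In 30 of the 46, passed or not, every BicR library lay above every LNCaP library, against 16.6% of all tested genes. The summed level of the list was 953 to 1113 CPM in LNCaP and 1408 to 1748 CPM in BicR.

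The promoters are shown because they hold the letters of the control element for which the group is known. The interferon-stimulated response element has a core that reads GAAA, then any 2 bases, then GAAA, which the IRF factors of interferon signalling bind. Sequences are the 170 bases before the transcription start in RefSeq (GRCh38.p14), printed 5′ to 3′ on the strand of the gene, with matches to the core on either strand in capitals (a match on the other strand reads TTTC, any 2 bases, TTTC). The promoters lie at chr10:89392453-89392622 (IFIT1, plus strand), chr10:89327827-89327996 (IFIT3, plus strand), chr1:78620278-78620447 (IFI44L, plus strand) and chr1:27672193-27672362 (IFI6, minus strand).
IFIT1: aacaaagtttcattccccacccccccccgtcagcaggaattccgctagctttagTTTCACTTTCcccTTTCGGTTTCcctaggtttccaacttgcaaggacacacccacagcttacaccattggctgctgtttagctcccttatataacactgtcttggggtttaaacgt
IFIT3: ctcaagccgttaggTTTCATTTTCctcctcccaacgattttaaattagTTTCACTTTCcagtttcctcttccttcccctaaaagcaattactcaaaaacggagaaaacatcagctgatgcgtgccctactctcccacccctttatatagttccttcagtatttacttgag
IFI44L: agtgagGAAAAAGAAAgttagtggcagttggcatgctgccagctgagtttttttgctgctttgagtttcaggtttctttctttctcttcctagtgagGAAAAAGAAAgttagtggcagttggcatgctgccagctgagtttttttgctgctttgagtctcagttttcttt
IFI6: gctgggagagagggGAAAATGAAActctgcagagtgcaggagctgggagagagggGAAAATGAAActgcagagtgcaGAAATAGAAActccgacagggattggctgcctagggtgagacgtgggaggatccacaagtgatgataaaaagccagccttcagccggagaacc

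IFIT1, IFIT3 and IFI44L held 2 matches each and IFI6 held 3. In the windows of 250 bases before to 50 after the start, the core was found in 8 of the 14 interferon-stimulated line identity genes with a promoter in the table (57.1%), and in 14 of 22 genes of the list that were tested and did not pass (63.6%). Over all 27305 promoters the share was 3.65%. Among all line identity genes it was 16 of 148 (10.8%) on the higher side and 11 of 261 (4.21%) on the lower side. Within the list, genes that did not pass held the core no less often than those that did. A match describes the letters only and does not show that a factor was bound.

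The enzymes that make the second messenger of the RNase L pathway, the oligoadenylate synthetases, were all higher. OAS2 was at 0.3, 0.976 and 0.518 CPM in LNCaP under ethanol, DHT and bicalutamide and at 20.1, 15.3 and 20.3 CPM in BicR, a log2 fold change of 5.01 (SE 0.38, adjusted p = 0.000585, edgeR). Under ethanol the BicR level was 67.1 times that of LNCaP (95% counting interval 40.5 to 120), under DHT 15.7 times and under bicalutamide 39.2 times. The related OASL, whose protein enhances RNA sensing, was at 6.76 to 9.23 CPM in LNCaP and 57.2 to 82.3 CPM in BicR (log2 fold change 3.16). OAS1 and OAS3 had log2 fold changes of 2.03 and 1.99. In each of these 4 genes the lowest value in BicR came from the DHT library and still lay above every LNCaP value.

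Antiviral effectors followed. RSAD2, the gene of viperin, which makes a chain-terminating nucleotide, was at 0.68, 0.7 and 0.594 CPM in LNCaP and 10.3, 7.23 and 13.4 CPM in BicR (log2 fold change 3.92, SE 0.29). IFIT1, which binds foreign RNA ends, stood at 5.86, 7.7 and 6.61 CPM in LNCaP and 46, 34.5 and 47.2 CPM in BicR (2.66, SE 0.21). IFIT2 was at 10.1, 11 and 11.5 CPM against 47.2, 52.1 and 49 CPM (2.19, SE 0.15). The LNCaP values of these 3 genes barely varied, and no BicR value came near them. IFI44L, IFI44, IFI27, IFI6, IFIT3 and the pro-apoptotic XAF1 were higher by 1.88 to 3.89 on the log2 scale.

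The sensor and signalling genes moved less. DDX58, which encodes the RNA sensor RIG-I, was at 17.9, 18 and 24.5 CPM in LNCaP and 41.4, 32.6 and 41.5 CPM in BicR (log2 fold change 0.94, adjusted p = 0.0196, edgeR), and DDX60, CMPK2 and PARP9 also passed at 1.05, 1.33 and 0.77. Of the transcription factors of the pathway, STAT2 had a log2 fold change of 0.39 (adjusted p = 0.148, edgeR), IRF9 of 0.31 (0.276), IRF7 of -0.09 (0.815) and IRF1 of -0.67 (0.0669), and these 4 did not pass. ISG15 and MX1, both classical members, missed the threshold at 0.88 (0.0509) and 0.61 (0.112), although both were above LNCaP in every BicR library. CD274, which encodes the checkpoint ligand PD-L1 and was not on the list, was higher at 3.38 to 4.84 CPM against 0.728 to 0.94 CPM (2.29, adjusted p = 0.00573).

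**Figure D3:**
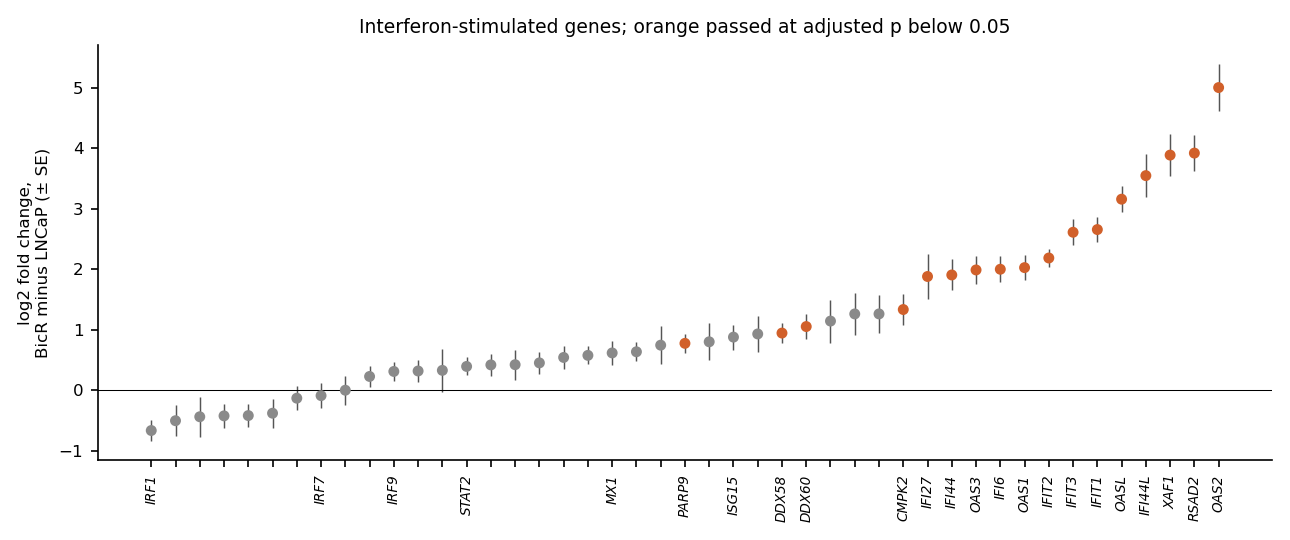
Log2 fold change between the lines (BicR minus LNCaP, fitted over 3 treatments) with its SE for 45 of the 46 tested interferon-stimulated genes, in order of size, with names on those given in the text. The 17 genes in orange passed at adjusted p below 0.05; they lie between 0.77 and 5.01, and none of the genes below 0 passed.

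More androgen-induced genes were higher in BicR than lower. Of 50 tested, 11 were line identity genes on the higher side (22%, against 1.58%) and 2 on the lower side, with a median log2 fold change of 0.55. Part of this rested on the DHT libraries: without them 6 passed as higher and 3 as lower, with a median of 0.12. With the treatment term dropped, 0 passed as higher and 1 as lower, with a median of 0.91.

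KLK2, a kallikrein protease that activates prostate-specific antigen, was at 121, 637 and 88.3 CPM in LNCaP and 298, 3047 and 302 CPM in BicR (log2 fold change 1.78, SE 0.23, adjusted p = 0.00573, edgeR). In each line the DHT library was the highest. BicR exceeded LNCaP in each treatment, although LNCaP under DHT lay above BicR under ethanol and bicalutamide, so the lines overlap unless treatments are matched.

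SLC45A3, the prostein transporter gene, showed the same order at 90.4, 384 and 85 CPM in LNCaP and 229.7, 1594 and 225 CPM in BicR (1.60). TARP, a transcript read inside the T cell receptor gamma locus of prostate cells, was at 0.66, 6.15 and 0.671 CPM in LNCaP and 4.46, 34.8 and 4.15 CPM in BicR (2.61, adjusted p = 0.000766). TRPM8, the cold-sensing calcium channel, had a log2 fold change of 1.48, KLK15 of 1.24, ZBTB16 of 1.32, CENPN of 1.26 and CHRNA2 of 2.18. CCDC141 met the definition on very few counts, 0, 28 and 0 for LNCaP and 1, 588 and 2 for BicR. Only the DHT pair lay above the floor of 3 counts, where BicR exceeded LNCaP 27.2 times (95% counting interval 18.6 to 41.3).

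KLK3, which encodes prostate-specific antigen, moved against its neighbour KLK2. It stood at 1403, 5259 and 979 CPM in LNCaP and at 672, 2601 and 630.2 CPM in BicR, lower in BicR in each matched pair by 2.09, 2.02 and 1.55 times (log2 fold change -0.90, SE 0.21, adjusted p = 0.0479, edgeR). In both lines the DHT library was the highest. The call was close to the threshold. PLA2G2A, a secreted phospholipase on the same list, was lower as well, at 211, 178 and 143 CPM in LNCaP and 64.4, 21.8 and 64.8 CPM in BicR (-1.95, SE 0.32). Unlike KLK3, PLA2G2A was lower under DHT than under ethanol in both lines, so these libraries did not show it as androgen-induced.

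Other androgen-induced genes did not differ beyond their spread. TMPRSS2, the serine protease gene fused to ETS factors in many tumours, was at 99.8, 495 and 93 CPM in LNCaP and 114, 1032 and 95.2 CPM in BicR (0.43, adjusted p = 0.271), and FKBP5 was at 43, 132 and 56.7 against 56.5, 712 and 54.2 CPM (0.90, adjusted p = 0.223). In both, the lines were close under ethanol and bicalutamide and apart under DHT. The lineage factors FOXA1 (0.21, adjusted p = 0.497) and HOXB13 (-0.24, 0.534) and the membrane antigen gene FOLH1 (0.02, 0.966) did not pass. Of 26 tested coregulators and chaperones of nuclear receptors 0 were line identity genes, against 4.42% of all tested genes. NR3C1, the glucocorticoid receptor gene, was below the filter, its LNCaP counts being 14, 6 and 19 and its BicR counts 3, 3 and 8.

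**Figure D4:**
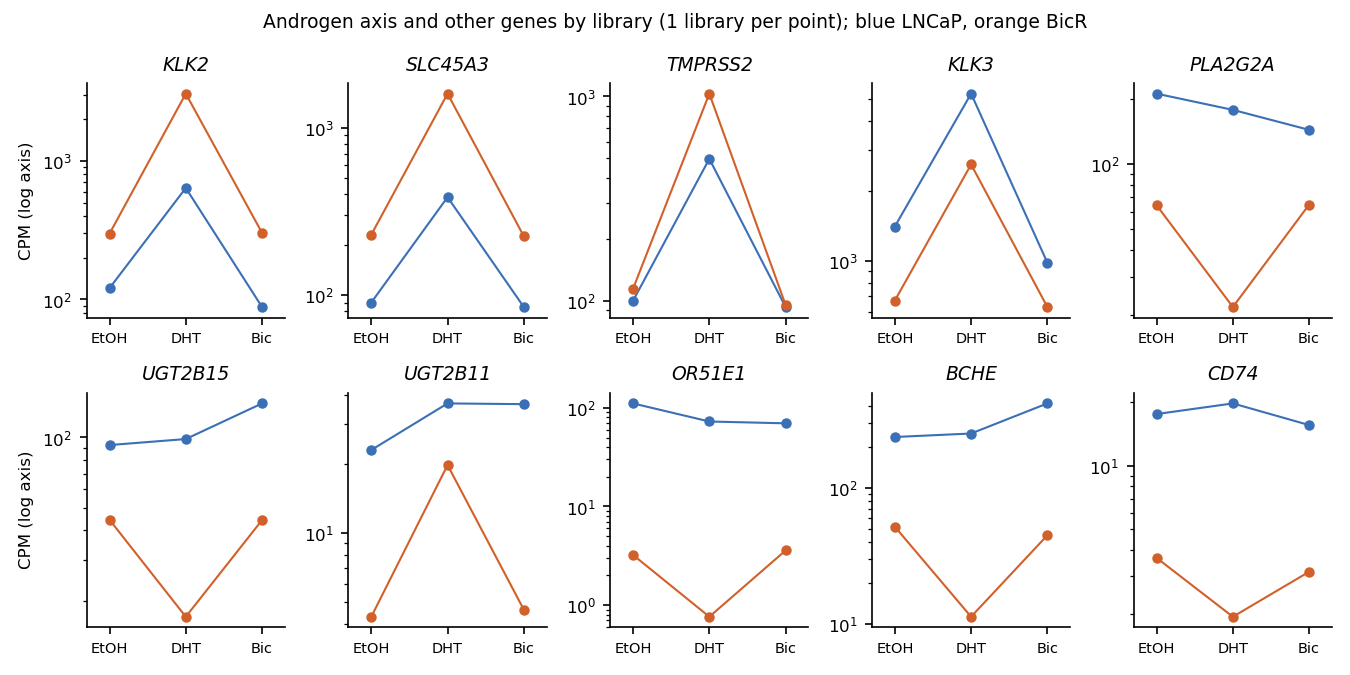
Level in CPM on a log axis under ethanol (EtOH), DHT and bicalutamide (Bic) for 10 genes, with 1 library per point (blue LNCaP, orange BicR). KLK2 and SLC45A3 lie higher in BicR in each treatment, KLK3, PLA2G2A, UGT2B15, UGT2B11, OR51E1, BCHE and CD74 lower, and TMPRSS2 lies close in ethanol and bicalutamide (114 and 95.2 CPM in BicR, 99.8 and 93 CPM in LNCaP).

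Genes of the UGT2B family, which includes enzymes that inactivate androgen, were lower in BicR. UGT2B15 conjugates DHT with glucuronic acid for export, and it was at 92.8, 98.5 and 140 CPM in LNCaP and 44.4, 17.1 and 44.3 CPM in BicR (log2 fold change -1.74, SE 0.26, adjusted p = 0.0118, edgeR). UGT2B11 was at 23, 36.8 and 36.5 CPM in LNCaP and 4.3, 19.8 and 4.62 CPM in BicR (-2.09, SE 0.36). UGT2B10 had a log2 fold change of -1.52. All 3 were lower in each matched pair with no overlap of the lines, and they were adjacent among the tested genes. UGT2B17 and UGT2B28 had log2 fold changes of -1.19 (adjusted p = 0.174) and -1.23 (0.305) and did not pass. The genes of this family are near-identical in sequence, so the division of reads among them is uncertain.

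Among 26 tested genes of steroid synthesis and inactivation, 4 were lower (15.4%, against 2.84% of all tested genes) and 1 higher (3.85%, against 1.58%), with a median of -0.34. The further members were SULT2B1, a sulfotransferase of sterols (-1.27), and STS, the steroid sulfatase, which removes sulfate and was the gene on the higher side (1.09, at 3.1 to 4.52 CPM in LNCaP and 6.53 to 9.87 CPM in BicR).

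Among androgen-repressed genes more were lower in BicR than higher. Of 28 tested, 7 were lower in BicR (25%, against 2.84%) and 1 was higher, with a median log2 fold change of -0.27; the UGT2B15 and UGT2B10 genes are also on this list. BCHE, the butyrylcholinesterase gene, was at 236, 249.9 and 416 CPM in LNCaP and 51.6, 11.2 and 44.6 CPM in BicR (-3.28, SE 0.39, adjusted p = 0.00419, edgeR). SLC5A1, a sodium-glucose transporter, was at 71.8, 16.5 and 23.7 CPM in LNCaP and 6.49, 2.27 and 8.16 CPM in BicR (-2.62). AGT, the angiotensinogen gene, MAN1A1, a Golgi mannosidase, and NCAM2, an adhesion molecule, were lower by 1.57, 1.02 and 1.44 on the log2 scale. Among the BicR libraries DHT was the lowest in 6 of the 7, all but UGT2B10. LNCaP shared this order only in part. There SLC5A1 and MAN1A1 were lowest under DHT, but BCHE, NCAM2 and UGT2B15 were lowest under ethanol and AGT under bicalutamide. By treatment the median log2 difference of the list was -0.08 under ethanol, -1.01 under DHT and -0.29 under bicalutamide. With the DHT pair left out, 4 genes of the list passed as higher and 8 as lower, with a median of -0.2.

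The largest differences on the lower side included a pair of G protein-coupled receptors. OR51E1 and OR51E2 belong to the olfactory receptor family, are expressed in prostate epithelium and have been used as prostate markers. OR51E1 was at 111, 72.7 and 69.6 CPM in LNCaP and 3.23, 0.763 and 3.58 CPM in BicR, which is 34.3, 95.2 and 19.4 times lower in the 3 treatments (log2 fold change -5.20, SE 0.38, adjusted p = 0.000568, edgeR). OR51E2 was at 3.92, 4.59 and 3.87 CPM in LNCaP and 0.403, 0.453 and 0.407 CPM in BicR (-3.28, SE 0.29). Both stayed detectable in each BicR library. They are neighbours among the tested genes, and TRIM68, the next gene on one side, was lower by 0.78 on the log2 scale (adjusted p = 0.0287, edgeR). On the other side the next 3 tested genes lay in the opposite direction: OR51B4, a related receptor gene on 10 to 18 LNCaP and 36 to 43 BicR counts, was higher (1.60, adjusted p = 0.0475, a call lost when any library was left out), and HBE1 (0.94, 0.11) and OR51B5 (0.92, 0.242) did not pass.

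Several of the largest differences on this side were in genes of adhesion, guidance and signalling. SEMA6D, a membrane-bound semaphorin, was covered by 119, 154 and 230 LNCaP counts but by only 8, 1 and 4 BicR counts. That put BicR 15.5 times lower under ethanol (95% counting interval 7.61 to 36.7) and 54.2 times lower under bicalutamide, where the lower end of the interval was 20.9. Of 25 tested semaphorins, plexins and neuropilins, SEMA6D, SEMA4G (-1.35) and NRP1 (-1.17) were lower (12%, against 2.84% of all tested genes). SEMA6A (0.71) was higher (4%, against 1.58%).

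CREB3L1, a transcription factor held in the endoplasmic reticulum membrane, was at 2.84, 3.61 and 1.63 CPM in LNCaP and 0.154, 0.215 and 0.163 CPM in BicR (-3.87, SE 0.37). CNTN5, a neuronal contactin, was at 6.16, 3.72 and 6.77 against 0.653, 0.119 and 0.305 CPM (-4.06, SE 0.38). Both were low in absolute terms in either line, and their lines were well separated. CXCL12, the chemokine ligand of CXCR4, had a log2 fold change of -3.53 and SNCG, gamma-synuclein, of -3.34. FAM65B, an inhibitor of RhoA, was lower by 3.01 (adjusted p = 0.000276) from a higher level, 24.5 to 49.5 CPM in LNCaP and 3.4 to 5.51 CPM in BicR.

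KLK11, a kallikrein outside the androgen-induced list, rested on 48, 76 and 31 LNCaP counts and 1, 8 and 4 BicR counts, so that BicR was at 0.136 times the LNCaP level under DHT (95% counting interval 0.0568 to 0.282). RALYL, an RNA-binding protein gene of brain, was at 6.5, 8.44 and 8.44 CPM in LNCaP and 0.96, 1.12 and 0.733 CPM in BicR (-3.06, SE 0.27, adjusted p = 0.00122, edgeR). SYT11, a synaptotagmin, was at 17, 4.53 and 6.33 CPM against 1.54, 0.31 and 1.63 CPM (-3.01, SE 0.37), highest in the ethanol library of LNCaP. TTC29 and C12orf53 had log2 fold changes of -3.33 and -3.03. SNAR-H, a small noncoding RNA from a family of near-identical copies, had a fitted value of -3.90 and is uncertain for that reason.

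Among highly expressed genes of the lower side, ATP2B1, a calcium pump of the plasma membrane, was at 649.6, 349 and 746 CPM in LNCaP and 174, 74.2 and 172 CPM in BicR (-2.08, SE 0.18, adjusted p = 0.000986). ASPH, an aspartyl hydroxylase, was at 1016, 1067 and 1570.3 against 431, 272 and 417 CPM (-1.71). SYT4, a synaptotagmin of secretory vesicles, was at 1468, 1981 and 2444 CPM against 719.9, 709 and 669 CPM (-1.46). CLU, the clusterin chaperone, was lower by 2.22 and EGF, the ligand of the EGF receptor, by 1.71. EGF was the only line identity gene among 52 tested genes of receptor tyrosine kinases, their ligands and the PI3K pathway (1.92%). The Wnt inhibitor SFRP1 (-2.53) was the only one among 36 Wnt genes (2.78%). Both shares are near the 2.84% of all tested genes that were lower. MYC (0.27, adjusted p = 0.442) did not pass.

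Luminal markers split. Of 32 tested, 6 were higher in BicR (18.8%, against 1.58% of all tested genes), KLK2, SLC45A3, TRPM8 and TARP among them. On the lower side were 7 (21.9%, against 2.84%), namely KLK3, KLK11, PLA2G2A, SLC44A4, OR51E1, OR51E2 and GDF15. Both shares lay above those of all tested genes, although the median was -0.02. The epithelial genes EPCAM (-0.30, adjusted p = 0.249), CDH1 (-0.19, 0.634), KRT8 (-0.23, 0.616) and KRT18 (-0.51, 0.234) did not pass. In BicR, 0 of 11 tested neuroendocrine genes were higher (against 1.58% of all tested genes) and 3 were lower (27.3%, against 2.84%), namely SYT4, PCSK1N and CELF3.

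Several genes of antigen presentation by class II molecules were lower in BicR. Of 36 tested antigen presentation genes, 7 were lower (19.4%, against 2.84%) and 0 higher, with a median of -0.45. By treatment the median log2 difference of the list was -0.525 under ethanol, -0.787 under DHT and -0.088 under bicalutamide. Without the DHT pair 5 genes of the list passed as lower. CD74, the invariant chain that escorts class II molecules, was at 17.6, 19.8 and 15.6 CPM in LNCaP and 3.67, 1.93 and 3.15 CPM in BicR (-2.62, SE 0.26, adjusted p = 0.00208, edgeR). HLA-DRA was at 28.8, 24.2 and 26.7 CPM against 9.54, 5.25 and 10.3 CPM (-1.72, SE 0.21). The LNCaP values of both genes were close to each other and well above BicR.

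HLA-DRB1, HLA-DRB5, HLA-DPB1 and HLA-DQB1 were lower by 1.87, 2.24, 1.78 and 1.21 on the log2 scale, and HLA-F by 1.14. CIITA, the master regulator of class II genes, was low in both lines at 0.35 to 0.748 CPM in LNCaP and 0.119 to 0.549 CPM in BicR (-0.49, adjusted p = 0.501). The class I genes HLA-B (-0.61, adjusted p = 0.12), HLA-C (-0.68, 0.0865) and B2M (0.26, 0.379) did not pass. HLA genes are similar to each other and differ between people, so the division of reads among them is uncertain. The immune marker PTPRC was at 0 counts in all 6 libraries.

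A part of the matrix and mesenchymal genes was lower. Of 55 tested matrix and integrin genes, 10 were lower (18.2%, against 2.84% of all tested genes) and 0 higher, with a median of -0.34, and of 20 mesenchymal genes 7 were lower (35%) and 0 higher, with a median of -0.79; 5 of the collagens that passed are on both lists. By treatment the median log2 difference of the mesenchymal list was -0.863 under ethanol, -0.903 under DHT and -0.304 under bicalutamide. Without the ethanol pair 4 of its genes passed as lower and 1 as higher, and without the DHT pair the numbers were the same. COL5A1 was at 58.9, 29.8 and 35.3 CPM in LNCaP and 17.5, 8.8 and 15.7 CPM in BicR (-1.56, SE 0.18, adjusted p = 0.00393, edgeR). COL3A1, COL5A2, COL1A1, COL6A2, COL7A1 and COL16A1 were lower by 0.72 to 2.09. LAMB1, a laminin chain, was at 6.64, 4.86 and 5.46 CPM in LNCaP and 1.96, 1.17 and 1.38 CPM in BicR (-1.93).

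The integrin ITGA11 (-2.11), the protease MMP7 (-2.27), the collagen crosslinker LOX (-2.70) and the transcription factor TWIST1 (-2.04, at 1.9 to 2.7 CPM in LNCaP and 0.422 to 0.739 CPM in BicR) were lower too. VIM, vimentin, ran the other way without passing (0.70, adjusted p = 0.0807). The fibroblast markers COL1A2 and PDGFRA were at 0 counts in all libraries. TGFBR2, a receptor of the TGF-beta pathway, was higher at 1.73 to 1.88 CPM against 0.0921 to 0.82 CPM (2.31, adjusted p = 0.0468). The list of that pathway leaned the other way. Of 35 tested TGF-beta and BMP genes 1 was higher (2.86%, against 1.58% of all tested genes). On the lower side were 4 (11.4%, against 2.84%), namely BMP7, CHRD, INHBE and GDF15.

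Several targets of NRF2, the transcription factor of the oxidative stress response, were lower. In the list of glutathione transferases, metallothioneins and NRF2 targets, 7 of 36 tested genes were lower (19.4%, against 2.84% of all tested genes) and 0 higher, with a median of -0.44. NQO1, a quinone reductase, was at 832, 909 and 1116 CPM in LNCaP and 455, 403 and 457 CPM in BicR (-1.11, SE 0.19, adjusted p = 0.0191, edgeR). HMOX1, haem oxygenase, was at 78.3, 69.7 and 60.7 against 47.4, 29.5 and 34.5 CPM (-0.92). TKT of the pentose phosphate pathway (-1.06), GCLM of glutathione synthesis (-0.68), OSGIN1 (-1.05) and MGST3 (-0.72) were also among the 7. Without the DHT pair 2 genes of the list passed.

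Of 31 tested p53 targets 4 were lower (12.9%, against 2.84% of all tested genes) and 1 was higher (3.23%, against 1.58%). CDKN1A, the cell cycle inhibitor p21, was at 852, 443 and 388 CPM in LNCaP and 199.8, 184 and 229 CPM in BicR (-1.37, SE 0.26, adjusted p = 0.0261), and the apoptosis gene BBC3 (-1.49), PHLDA3 (-1.20) and GDF15 (-1.23) were lower as well. PLK2 was higher at 1.00. CDKN1A and GDF15 were highest in LNCaP ethanol, the library with the high HSPA5 level, though GDF15 was nearly as high in LNCaP DHT (2451 and 2351 CPM). With the ethanol pair left out, 4 genes of the list still passed as lower.

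Mitosis genes lay higher in BicR, by an amount that depended on the LNCaP ethanol library, and how many passed depended on the settings. Of 44 tested, 7 were line identity genes on the higher side (15.9%, against 1.58% of all tested genes) and 0 on the lower side, 36 were above LNCaP in every BicR library (against 16.6% of all tested genes), and the median log2 fold change was 1.30. The summed level was 192, 666 and 659 CPM in LNCaP and 1103, 1157 and 962 CPM in BicR. By treatment the median log2 difference was 2.62 under ethanol, 0.74 under DHT and 0.61 under bicalutamide. Without the ethanol pair 11 of the 44 passed as higher and 1 as lower, with a median of 0.66. The number passing as higher was 20 without the DHT pair, 29 without a filter on low counts, 26 by DESeq2 and 0 without the treatment term.

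MKI67, the proliferation marker Ki-67, was at 12.7, 27.5 and 44.1 CPM in LNCaP and 97, 104 and 85.1 CPM in BicR (1.93, SE 0.32, adjusted p = 0.0189, edgeR). BUB1, a checkpoint kinase, was at 2.46, 9.75 and 11.1 against 22.7, 25.6 and 21 CPM (1.79). KIF20A, KIF4A, TPX2, CENPA and CCNB1 were higher by 1.38 to 1.78. The LNCaP ethanol library was the lowest of all in these genes and was the library with 8598 CPM of HSPA5. What that library's state contributes to the mitosis result was not tested beyond the values without it.

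A few ribosomal protein genes were lower in BicR. Of 76 tested ribosomal genes 5 were lower and 0 higher (6.58%, against 2.84%), with a median of -0.45. Their summed level was 63332 and 66096 CPM in LNCaP under ethanol and DHT, but 38716 CPM in LNCaP under bicalutamide, close to the 37954 to 38909.8 CPM of BicR. RPLP0, which gave the largest difference, was at 7158, 5455 and 2813 CPM in LNCaP and 2046, 2072 and 1895 CPM in BicR (-1.26, adjusted p = 0.043, edgeR). Without the DHT pair 0 of the 76 passed, with a median of -0.29, while DESeq2 called 24 of them lower. Of 66 respiratory chain genes 3, NDUFA1, NDUFA3 and NDUFA7, were lower (4.55%, near the 2.84% of all tested genes), with a median of -0.39, while 0 passed without the DHT pair and 19 by DESeq2. The respiratory chain sums were 7746 to 9963 CPM in LNCaP and 7111 to 7675 CPM in BicR. Whether the 2 high LNCaP libraries set these differences was not tested otherwise.

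**Figure D5:**
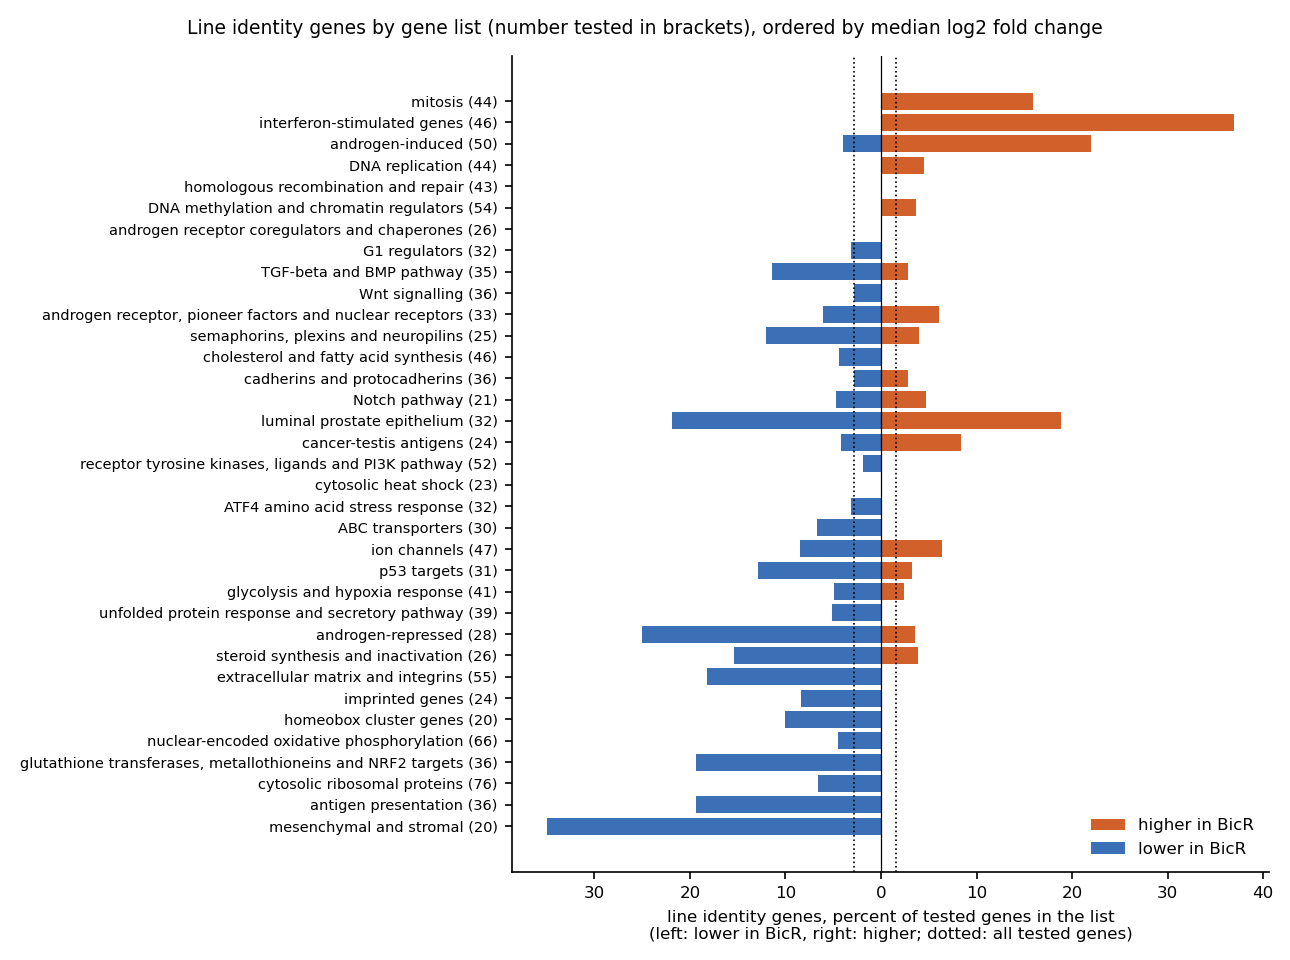
Share of the tested genes of each list that were line identity genes, to the right where higher in BicR and to the left where lower, for the 35 lists with at least 20 tested genes, ordered by median log2 fold change; dotted lines mark the shares over all tested genes (1.58% and 2.84%). On the right the longest bars are those of interferon-stimulated (37%) and androgen-induced genes (22%), on the left those of mesenchymal (35%) and androgen-repressed genes (25%), and luminal genes have long bars on both sides.

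Several other lists held few line identity genes. None was found among 43 tested genes of homologous recombination and repair or 23 of the cytosolic heat shock response. Over all tested genes the share was 4.42%, which gives few genes in lists of this size. In the unfolded protein response 2 of 39 were lower (5.13%, against 2.84% of all tested genes). The list's summed level was 36593 CPM in LNCaP ethanol against 11408 to 15662 CPM in the other libraries. Among 54 genes of DNA methylation and chromatin regulation 2 were higher (3.7%, against 1.58% of all tested genes). TET3, a 5-methylcytosine dioxygenase, was at 67.3, 71.2 and 95.2 CPM in LNCaP and 136, 146 and 146 CPM in BicR (0.89, adjusted p = 0.0253, edgeR). The other was SMARCA2, a chromatin remodelling ATPase (0.82). TET2 did not pass (0.47, adjusted p = 0.18). Ion channels held larger shares, since of 47 tested genes 3 were higher and 4 lower (6.38% and 8.51%, against 1.58% and 2.84% of all tested genes).

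Some line identity genes stood beside each other. RefSeq gave a place to 603 of them among 13414 tested genes. Of 13391 adjacent pairs of tested genes, 13 were both higher, 34 both lower and 15 opposite. In all, 86 of the 603 fell into 39 runs of the same direction, 9 higher and 30 lower, so most stood alone. The longest run, of 4 genes, was lower and joined TFPI, GULP1, COL3A1 and COL5A2. Runs of 3 on the higher side were OAS1, OAS3 and OAS2, then IFIT2, IFIT3 and IFIT1, and 2 runs in which an interferon pair (RSAD2 and CMPK2, IFI44L and IFI44) adjoined a gene outside the list, RNF144A and LPHN2. On the lower side the runs of 3 were the OR51E1 and the UGT2B15 groups described above. Many of these runs are families of related genes, and reads of overlapping or similar neighbours cannot be told apart here, since the counting method and its use of strand were not stated.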

How the data were processed

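Total RNA of LNCaP and BicR cells, 1 library for each line and treatment, was sequenced on the SOLiD 3 Plus system, per the labels' protocols. The authors deposited a table of raw read counts per gene symbol for each library, per the file headers. RPKM values, scaled by the authors to gene length and depth, stand beside the counts per the file headers and were used here only as an alternative scale. Reads were placed on hg19, per the submitters' processing notes; for the aligner, the counting and the use of strand, nothing is given in the sources used here.

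Of 21512 rows, 2988 were 0 in all 6 libraries and 27 had date-like names. The 13885 genes whose mean count reached 20 were tested, with TMM scaling, a model of treatment plus line (2 residual and 6.80 prior degrees of freedom) and edgeR's quasi-likelihood test (edgeR 4.0.16, R 4.3.3), 2-sided, Benjamini-Hochberg at 0.05 over all tested genes. Adjusted p-values and log2 fold changes in the text are from this fit. Standard errors (SE) were derived from it, as the absolute log2 fold change divided by the square root of the F statistic. They are approximate, above all for genes near 0 counts in a line. CPM were computed from the deposited counts. Ratios of counts in matched libraries were given exact binomial 95% intervals, and a library at 0 was allowed up to 3 counts; intervals and floors cover counting error only. The script was tested on simulated data before use.

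The members and the gene lists were chosen with earlier results of these data known, so the counts over lists are descriptions. Genes were named by rule: the 15 highest and 15 lowest log2 fold changes, the 8 with the highest level on each side, up to 4 per list and direction, a fixed set of prostate genes, and the steadiest large differences. CD274, TRIM68 and the other neighbours, the defining markers of other cell types and the list members without the largest change were named after their values were seen. Some genes that the rule or a list includes are counted in the totals but not reported here. Promoters and gene order come from RefSeq (GRCh38.p14), matched by symbol. Alternatives were another scaling (RLE, upper quartile), other filters, DESeq2 1.42.0, limma 3.58.1 on log2(CPM + 1) and on log2(RPKM + 1), no treatment term, each library or pair left out, and a test against a minimum 2-fold change.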

Additional observations from a re-analysis of the deposited data

Results flagged for a closer look

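IGF1R, the receptor of insulin-like growth factors, was not a line identity gene (log2 fold change 0.02, adjusted p = 0.98, edgeR's quasi-likelihood test) because its line difference changed direction with treatment. It stood at 40.1, 52 and 52.3 CPM in LNCaP under ethanol, DHT and bicalutamide and at 29.6, 159 and 25.6 CPM in BicR. BicR was 3.05 times as high as LNCaP under DHT (1.61 on the log2 scale, 95% counting interval 2.92 to 3.19 times) and 0.491 times as high under bicalutamide (0.459 to 0.525). With 1 library per line and treatment this difference between treatments was not tested. Of the tested genes 68 (0.49%) differed at least 2-fold in opposite directions in 2 treatments; the definition of a line identity gene leaves such genes out.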

How the results depend on the processing

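The definition largely fixes the direction of the 614 line identity genes, so the number passing is given. Against 219 higher and 395 lower, edgeR without a filter on low counts gave 503 higher and 857 lower genes, of which 495 and 853 kept sign in each treatment. A mean of at least 100 counts gave 133 and 232, and DESeq2 557 and 933 (550 and 919 with sign kept). Dropping the treatment term gave 137 higher and 272 lower genes, and a test against a minimum 2-fold change 27 and 26. RLE scaling kept all 614, upper-quartile scaling 563, limma on log2(CPM + 1) 583 and on log2(RPKM + 1) 479. Leaving out 1 library gave 0 to 225 higher genes (0 to 221 with sign kept) and 0 to 470 lower (0 to 467); the value of 0 came from either bicalutamide library, and leaving out both of them also gave 0 in each direction. In this additive model, dropping a library leaves its matched partner without a comparison, so the pair is lost. The cause of the loss without the bicalutamide pair was not tested.

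Genes that did not pass could change sign. Without the ethanol libraries, 1 or both, FOLH1 was at -0.07, HSPA5 at 0.06, CDH1 at 0.07 and KRT8 at 0.15. Without DHT libraries IRF7 was at 0.11, HOXB13 at 0.02 and IGF1R at -0.73, and without bicalutamide libraries FOLH1 was at -0.09. Over single libraries left out the ranges were -0.34 to 0.11 for IRF7, -0.49 to 0.02 for HOXB13, -0.09 to 0.21 for FOLH1, -1.48 to 0.06 for HSPA5, -0.73 to 0.59 for IGF1R, -0.34 to 0.07 for CDH1 and -0.50 to 0.15 for KRT8. No paired analysis by replicate number was possible because the labels give none; treatment served as the block. With 1 library per line and treatment, variation between cultures is not known, and genes with few counts in a line have wide intervals.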
